A study of Mus musculus with 16 samples.

Results

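Histone lysine methyltransferases add methyl groups to lysines of the histone tails, and histone lysine demethylases remove them. The 45 genes described here are those of the array annotation whose symbol begins with Kdm, Kmt, Setd, Setdb, Suv39h, Nsd, Ehmt or Prmt followed by a digit, out of 17097 genes with a probe set of their own. They were chosen by name, by a rule that uses no measured value. The name rule is wider than the usual class, because 8 of the 45 are Prmt genes, whose proteins methylate arginine, and because several SETD proteins have substrates other than histones. The 45 genes had 101 probe sets, and the brightest one on average stands for each gene.

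The measurements come from 16 Affymetrix arrays, 4 in each of 4 groups of sorted splenic CD4 T cells from NOD/LtJ mice, a strain that develops autoimmune diabetes, at 6 weeks of age. They were Tregs (regulatory T cells) and Tconv (conventional T cells) of WT animals and both cell types of KI animals. WT animals are labelled wild type but carry the transgene Tg(Foxp3-EGFP/cre)1aJbs, in which Foxp3 regulatory sequence drives a fusion of GFP and Cre. KI animals carry the allele Foxp3tm2Ayr (Foxp3gfp), a knock-in at Foxp3 that makes a fusion of GFP and Foxp3, the transcription factor that defines Tregs. It is not stated that different mice gave the arrays of a group, so every p-value below measures the spread between these samples only. One sorting gate, CD3 and CD4 positive and GFP negative, is given for all samples, also for those named Treg, so how the Tregs were gated is unclear.

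The labelled cell types were checked against marker genes. All 7 Treg markers tested were higher in Tregs in both genotypes, with Foxp3 at 9.86 against 4.63 in WT and 9.76 against 3.69 in KI. Between KI and WT Tconv, all 7 were lower in KI and 3 passed, or 42.9% beside 0.135% of all genes. These were Foxp3 (-0.93, adjusted p = 0.0104, limma), Ikzf2 (-0.83, adjusted p = 5.80e-06) and Nrp1 (-0.77, adjusted p = 0.00807). Between KI and WT Tregs 1 passed (Ctla4, 0.64). Of 4 T cell markers tested, only Cd4 passed, lower in Tregs by -0.71 in WT and -0.49 in KI. Among markers of other cells, Cd8a read 6.43 in WT Tregs against 4.08 in WT Tconv, while the other CD8 T cell gene, Cd8b1, did not pass (differences of 0.08 in WT and -0.26 in KI), and both dendritic cell markers tested (Irf8 and Cst3) were higher in Tregs, while Itgax, Flt3 and Zbtb46 never read above 5. The mean level of the 2 CD8 T cell genes was 6.11 to 6.45 on WT Treg arrays and 4.80 to 5.19 on WT Tconv arrays, and 5.85 to 6.26 and 5.18 to 5.61 in KI. For the 5 dendritic cell genes measured, the same range was 5.23 to 5.74 in WT Tregs and 4.85 to 5.08 in WT Tconv, and 5.32 to 5.95 and 4.89 to 5.06 in KI. Of the 2 NK cell genes tested, Eomes was higher (0.92 in WT and 0.83 in KI) and Prf1 lower (-1.81 and -1.92), while Ncr1 and Klrb1c read near background. Of 3 B cell markers tested 1 was higher in Tregs (Cd79b), while Cd79a and Pax5 never read above 5. Ms4a1 and Cd22 did not pass, with group means of 6.04 to 6.92 and 5.88 to 6.44. The mean level of the 6 neutrophil genes ran from 3.36 to 6.67 on WT Treg arrays. The 4 of them tested differed by -0.29 to 0.19 in WT and by 0.98 to 1.70 in KI, and none passed. The monocyte gene Lyz2 (group means 6.81 to 8.10) and the erythroid gene Hba-a1 (9.85 to 10.89) did not pass either. The part of these cells in the differences below was not tested. In a bulk sample, a lower level can come from fewer cells that express a gene or from less RNA per cell, and these cannot be told apart.

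The enzymes act in opposing pairs on defined positions of histone tails. Methylated H3K4 and H3K36 (lysines of histone H3 named by position) mark active promoters, enhancers and gene bodies, whereas methylated H3K9 and H3K27 are found in silenced chromatin, and a Polycomb complex places the latter. Writers with a SET domain take the methyl group from S-adenosylmethionine, and erasers are either amine oxidases or Jumonji oxygenases that need iron and 2-oxoglutarate. In CD4 T cells these marks help to keep lineage genes such as Foxp3 on or off as cells divide.

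Of the 45 genes, 37 were tested, and all of these read above the filter value of 5 on every array, the lowest value being 5.61. So no tested gene passed the filter through 1 group alone. The other 8 never read above 4.90, which is close to the background of the arrays: Kdm2a, Kdm4a, Kdm4b, Kdm4d, Kdm5d, Kdm8, Prmt8 and Suv39h2. Kdm2a was read here from probe sets with group means of 2.85 to 3.09, and its other probe sets are shared with 9430078G10Rik and were not used. Kdm5d lies on the Y chromosome and had its lowest group mean at 2.80 in KI Tregs and never read above 3.08, while Xist had group means of 11.86 to 12.08. Kdm6b and Nsd2 are listed only on probe sets that also name another gene and have no value here, and Kdm3b, Kmt2a, Setd1a and Suv39h1 were not analysed here.

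In WT, 15 of the 37 tested genes differed between Tregs and Tconv at an adjusted p below 0.05 (limma, Benjamini-Hochberg over 8139 genes), 5 higher and 10 lower in Tregs. That is 40.5%, beside 34.6% of all genes tested, of which 16.7% were higher and 17.9% lower. In KI, 11 of the 37 differed, 3 higher and 8 lower in Tregs, or 29.7% beside 41.1% of all genes (21.2% higher and 19.9% lower). The share of the enzymes that differed thus lay a little above that of all genes in WT and below it in KI. Their median Treg minus Tconv difference was -0.13 log2 in WT and -0.09 in KI, beside medians of -0.03 and -0.02 over all genes. In the WT comparison, 12 of the 15 had no overlap between the 4 Treg and 4 Tconv arrays, and in KI 11 of 11 had none. Over all genes, 2526 of the 2818 called in WT (89.6%) and 2661 of the 3343 called in KI (79.6%) had no overlap either, which is 31% and 32.7% of all genes tested, so this count is no trait of the enzymes.

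The enzymes differing in one genotype mostly also differed in the other. 10 genes passed in both and in the same direction, which is 66.7% of the WT calls and 90.9% of the KI calls. For all genes the corresponding overlap was 2311 genes, or 82.0% of the WT calls and 69.1% of the KI calls. No array is in both comparisons, although they share the variance estimate of the fit. Setd4, Setd6, Setdb2, Setd3, Prmt3, Prmt5 and Kmt2c were lower in Tregs, and Kdm2b, Ehmt2 and Kmt5a were higher. Every one of the 16 genes that passed in either genotype had the same sign in both, as did 33 of the 37 tested. The exceptions, Kdm5b, Kdm6a, Kmt2e and Setdb1, passed in neither.

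**Figure D1:**
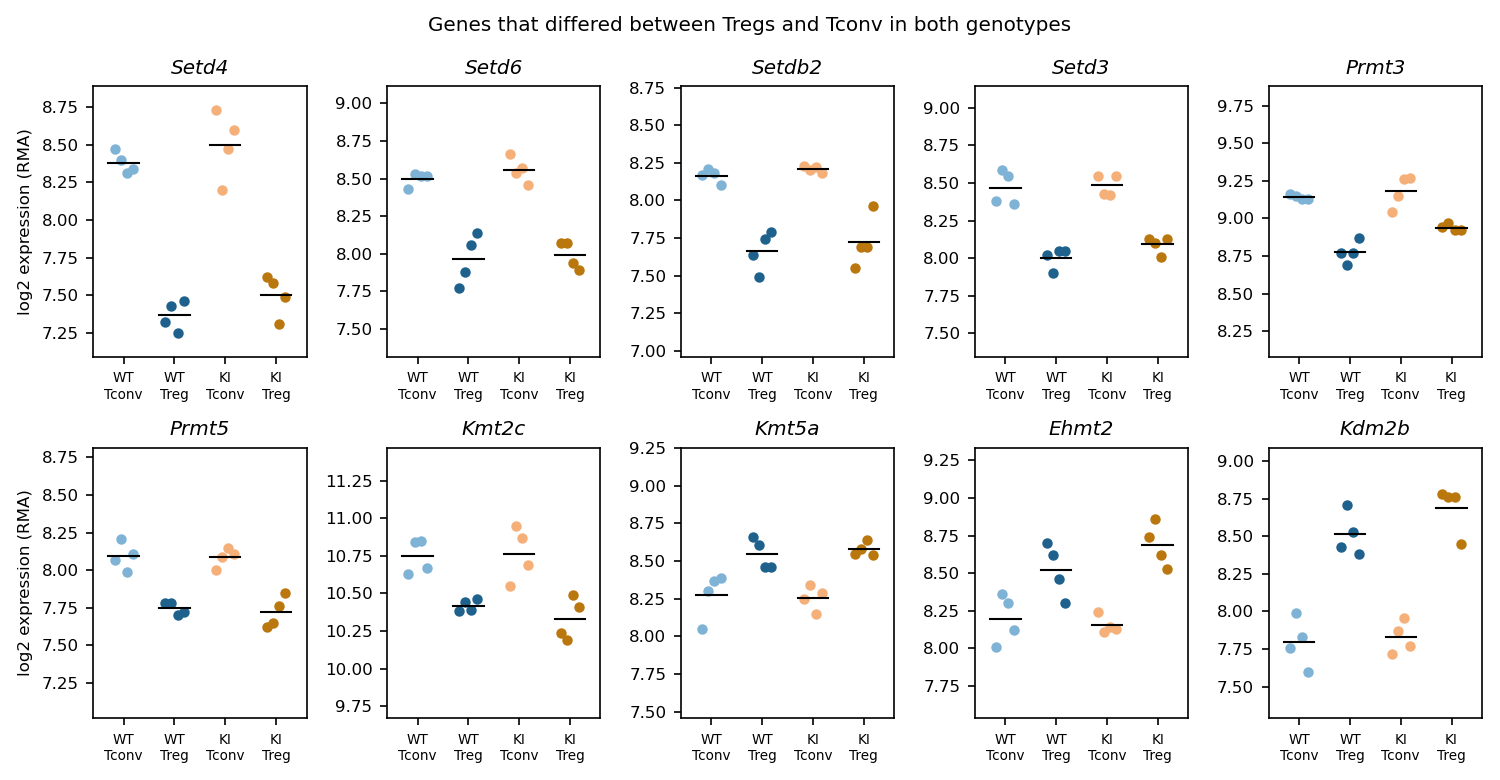
Log2 expression (RMA) on each of the 16 arrays for the 10 genes that differed between Tregs and Tconv in both genotypes; each point is an array, each line a group mean of 4 arrays, and the y axis spans a like log2 range in each panel. Setd4 shows the widest gap, with WT Tregs between 7.25 and 7.46 and WT Tconv between 8.31 and 8.47.

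The difference of greatest size among the tested genes was that of Setd4, a SET domain methyltransferase that is less studied than its relatives. Setd4 read 7.32, 7.43, 7.25 and 7.46 on the WT Treg arrays and 8.47, 8.40, 8.31 and 8.34 on the WT Tconv arrays. In KI it read 7.62, 7.58, 7.31 and 7.49 in Tregs and 8.73, 8.20, 8.47 and 8.60 in Tconv. All 8 Treg arrays lay below all 8 Tconv arrays. Setd4 fell by 1.01 ± 0.10 log2 (SE) in WT, 2.02-fold lower in Tregs (adjusted p = 2.54e-07, limma), and by 1.00 ± 0.10 in KI, 2.00-fold lower (adjusted p = 2.25e-07). Its other 2 probe sets gave -1.07 and -0.91 in WT and -0.72 and -1.14 in KI, and each passed.

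Setd6, which methylates the NF-kappaB subunit RelA, was also lower in Tregs. Setd6 read 7.77, 7.88, 8.06 and 8.14 in WT Tregs against 8.43, 8.53, 8.52 and 8.52 in WT Tconv, and 8.07, 8.07, 7.94 and 7.89 in KI Tregs against 8.66, 8.54, 8.57 and 8.46 in KI Tconv. The highest Treg array lay below the lowest Tconv array in both genotypes. The difference was -0.53 ± 0.08 log2 in WT (1.45-fold lower, adjusted p = 4.38e-05, limma) and -0.56 ± 0.08 in KI (1.48-fold lower, adjusted p = 1.80e-05). A second probe set of Setd6 gave -0.53 and -0.62.

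Setd3, whose known substrate is a histidine of actin, stood at 8.02, 7.90, 8.05 and 8.05 in WT Tregs and at 8.38, 8.59, 8.55 and 8.36 in WT Tconv. The KI arrays gave 8.13, 8.10, 8.01 and 8.13 for Tregs and 8.55, 8.43, 8.42 and 8.55 for Tconv, again with no overlap. Setd3 was 1.38-fold lower in WT Tregs (log2 difference -0.47 ± 0.07, adjusted p = 3.56e-05, limma) and 1.32-fold lower in KI Tregs (-0.40 ± 0.07, adjusted p = 1.66e-04). The last of the SET domain genes outside the histone classes, Setd5, whose catalytic activity is disputed, had the opposite sign. Setd5 read 8.06, 8.19, 7.92 and 8.03 in WT Tregs and 7.64, 7.52, 7.50 and 7.91 in WT Tconv, groups that nearly touched. Its difference was 0.40 ± 0.15 in WT (adjusted p = 0.0449, limma) and 0.27 ± 0.15 in KI (adjusted p = 0.165), and a second probe set read the other way, at -0.20 and -0.17, without passing. The WT call of Setd5 was lost on leaving out any of the 4 WT Treg arrays, WT Tconv replicate 1, 2 or 3, or KI Treg replicate 1, which adds to the shared variance. So 3 of these 4 SET domain genes were lower in WT Tregs and 1, Setd5, was higher, beside 17.9% of all genes lower and 16.7% higher. In KI Tregs 3 were lower and 0 higher, beside 19.9% and 21.2% of all genes.

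The bases upstream of Setd4, Setd6 and Setdb2, the genes lower by about 0.5 log2 or more in Tregs of both genotypes, and of Kdm2b, the gene with the largest rise, are shown so that their promoters can be compared. Each is the 250 bases before a start site listed in RefSeq (assembly GRCm38.p6), written on the strand of the gene. Capitals mark exact matches, on either strand, to the forkhead motif TGTTTAC (reverse GTAAACA), the family to which Foxp3 belongs, and to the ETS motif CCGGAAG (reverse CTTCCGG). Setd4 lies at chr16:93603816-93604065 on the minus strand, Setd6 at chr8:95715663-95715912 on the plus strand, Setdb2 at chr14:59440881-59441130 on the minus strand, and the most upstream of 4 listed starts of Kdm2b at chr5:122989100-122989349 on the minus strand.
Setd4: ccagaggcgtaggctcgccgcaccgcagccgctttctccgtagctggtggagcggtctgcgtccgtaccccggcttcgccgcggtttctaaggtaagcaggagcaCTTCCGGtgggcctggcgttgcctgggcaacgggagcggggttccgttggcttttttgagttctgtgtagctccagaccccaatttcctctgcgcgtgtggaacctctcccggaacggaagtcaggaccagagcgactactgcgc
Setd6: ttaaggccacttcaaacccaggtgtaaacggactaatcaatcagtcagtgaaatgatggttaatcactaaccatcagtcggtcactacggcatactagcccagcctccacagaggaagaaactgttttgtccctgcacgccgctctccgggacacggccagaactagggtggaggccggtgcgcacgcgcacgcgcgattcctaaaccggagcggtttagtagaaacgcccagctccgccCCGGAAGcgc
Setdb2: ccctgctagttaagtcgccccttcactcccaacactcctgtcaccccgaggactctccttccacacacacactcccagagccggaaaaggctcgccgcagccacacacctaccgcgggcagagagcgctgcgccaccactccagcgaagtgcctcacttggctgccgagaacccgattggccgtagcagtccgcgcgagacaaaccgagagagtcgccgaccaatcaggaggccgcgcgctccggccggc
Kdm2b: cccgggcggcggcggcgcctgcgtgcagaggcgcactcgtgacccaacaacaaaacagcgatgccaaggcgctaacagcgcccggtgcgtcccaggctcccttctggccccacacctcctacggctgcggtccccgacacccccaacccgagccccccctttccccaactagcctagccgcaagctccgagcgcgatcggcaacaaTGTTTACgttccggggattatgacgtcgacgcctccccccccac
All of these windows are rich in CpG, with 24 in Setd4, 20 in Setd6, 24 in Setdb2 and 27 in Kdm2b, beside a median of 6 over all listed promoters and 19 over those of the genes described here. Setd4 and Setd6 each held 1 ETS match, Setdb2 neither motif, and Kdm2b 1 forkhead match. The window of the most downstream listed start of Kdm2b, which is not shown, held neither motif. RefSeq starts were listed for 37 of the 45 genes, 49 promoters in all. The forkhead letters occurred in 1 of these 49 (2.04%), beside 3.17% of all 32851 listed promoters. The ETS letters occurred in 7 of 49 (14.3%), beside 6.91% of all. The GC box GGGCGG occurred in 65.3% and 32.7%, CCAAT in 42.9% and 33.8%, the E box CACGTG in 12.2% and 6.02%, and the Runx motif TGTGGT in 10.2% and 14%, each searched on both strands. The GC box, ETS and E box letters each hold a CpG, so their shares stand beside a higher CpG content of these promoters. Whether they differ apart from CpG content was not tested. These matches describe letters in a window and not bound sites.

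Of 6 H3K4 writers tested, 1 was lower in WT Tregs (Kmt2c) and 2 in KI Tregs (Kmt2c and Kmt2d), and none was higher, beside 17.9% and 19.9% of all genes lower. Kmt2c and Kmt2d are the catalytic subunits of the COMPASS-like complexes that monomethylate H3K4 at enhancers. Kmt2c read 10.38, 10.44, 10.39 and 10.46 in WT Tregs against 10.63, 10.84, 10.85 and 10.67 in WT Tconv, and 10.24, 10.19, 10.49 and 10.41 in KI Tregs against 10.55, 10.95, 10.87 and 10.69 in KI Tconv. No Treg array reached the lowest Tconv array of its genotype. Kmt2c differed by -0.33 ± 0.08 log2 in WT (adjusted p = 0.00454, limma) and by -0.43 ± 0.08 in KI (adjusted p = 4.32e-04). Among its 4 probe sets, 2 passed in WT and all 4 in KI, with differences of -0.34 to -0.17 and -0.51 to -0.33.

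Kmt2d, the partner paralog of Kmt2c, read 9.19, 9.13, 9.11 and 8.98 in WT Tregs and 9.20, 9.43, 9.27 and 9.27 in WT Tconv. In KI its levels were 8.97, 8.98, 9.09 and 8.92 in Tregs and 9.38, 9.51, 9.45 and 9.25 in Tconv. The groups did not overlap in either genotype, though they nearly touched in WT. Kmt2d was 1.32-fold lower in KI Tregs (-0.40 ± 0.07, adjusted p = 1.95e-04, limma) and missed the threshold in WT (-0.19 ± 0.07, adjusted p = 0.0503), where it passed with the 2 or the 3 runs of array numbers as a block (adjusted p = 0.0244 and 0.0273). The genotypes were not shown to differ, since the interaction, the KI minus WT change in Tregs less that in Tconv, was -0.21 ± 0.10 (adjusted p = 0.604). Kmt2b, a promoter H3K4 methyltransferase, differed by 0.05 and 0.03, Kmt2e by 0.06 and -0.07, Setd1b by -0.06 and -0.06, and Setd7, which monomethylates H3K4 and other proteins, by -0.13 and -0.03, in WT and KI, and none passed with the probe set used. A dimmer probe set of Kmt2e gave -0.49 in WT (adjusted p = 0.0505, limma) and passed in KI at -0.58 (adjusted p = 0.0195). Its other tested probe sets gave 0.12 in WT and 0.12 and -0.03 in KI and did not pass.

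**Figure D2:**
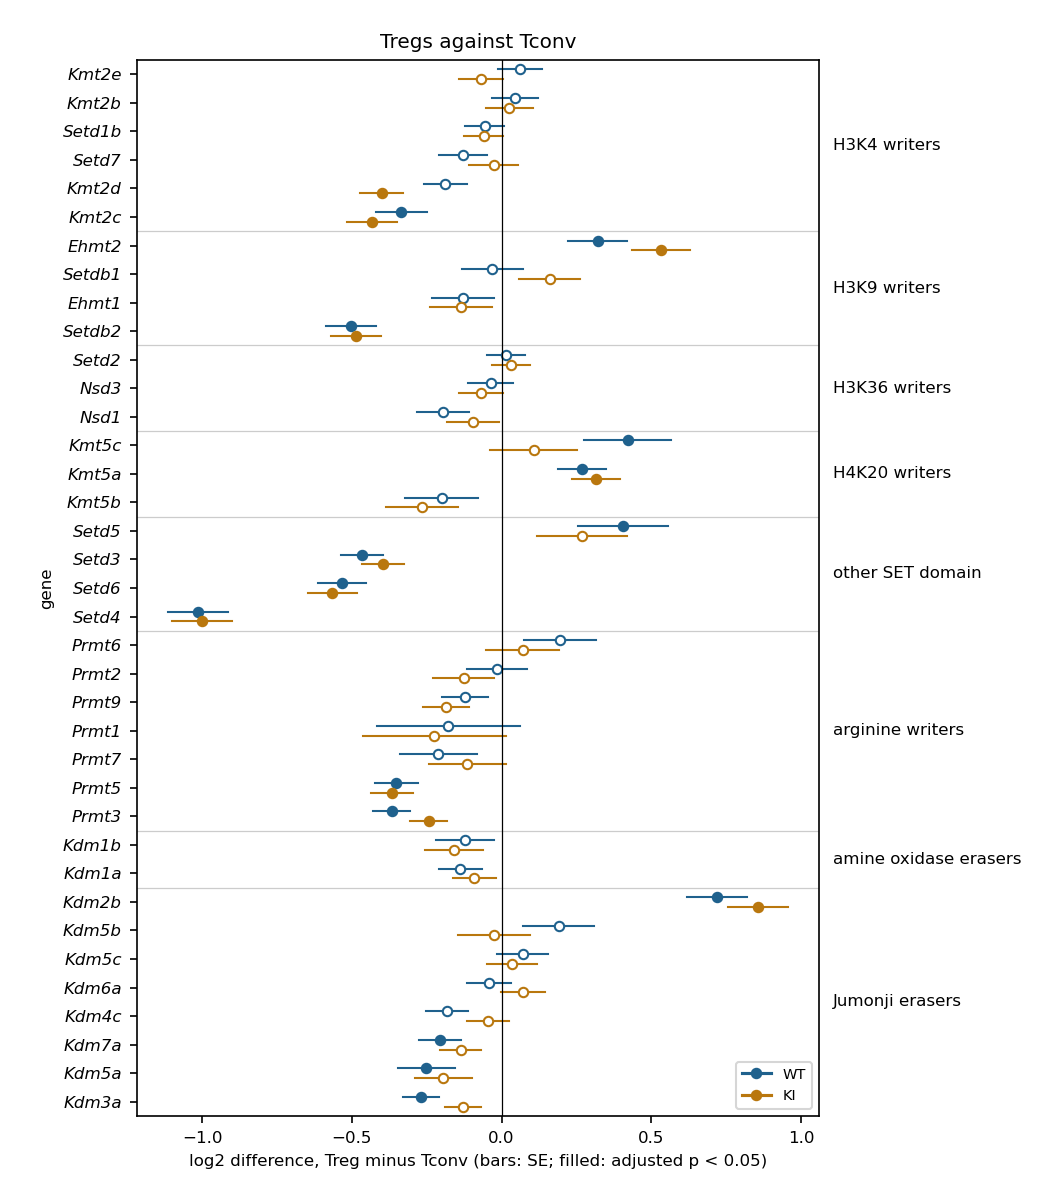
Treg minus Tconv difference in log2 expression for the 37 tested genes, ordered by role, in WT and in KI; points are estimates from 4 arrays a group, bars are 1 SE, and filled points passed an adjusted p of 0.05. Setd4 lies near -1 in both genotypes, and Kdm2b lies farthest to the right, at 0.72 and 0.86.

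The H3K9 writers held members that moved in opposite directions. Ehmt2 (G9a) places mono- and dimethylation on H3K9 in euchromatin together with Ehmt1. Ehmt2 read 8.70, 8.62, 8.46 and 8.30 in WT Tregs and 8.01, 8.36, 8.30 and 8.12 in WT Tconv, where the groups overlapped. In KI the levels were 8.74, 8.86, 8.62 and 8.53 in Tregs and 8.24, 8.11, 8.14 and 8.13 in Tconv, with no overlap. Ehmt2 was 1.25-fold higher in WT Tregs (0.32 ± 0.10 log2, adjusted p = 0.0163, limma) and 1.45-fold higher in KI Tregs (0.53 ± 0.10, adjusted p = 2.70e-04). The WT call was lost when WT Treg replicate 1, WT Treg replicate 2 or WT Tconv replicate 1 was left out.

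Setdb2, an H3K9 methyltransferase that interferon induces in myeloid cells, was lower. Its levels were 7.64, 7.49, 7.74 and 7.79 in WT Tregs and 8.17, 8.21, 8.18 and 8.10 in WT Tconv, and 7.55, 7.69, 7.69 and 7.96 in KI Tregs and 8.23, 8.20, 8.22 and 8.18 in KI Tconv. The Tconv arrays lay close together and above all Treg arrays. Setdb2 fell by 0.50 ± 0.08 log2 in WT (1.42-fold lower, adjusted p = 1.24e-04, limma) and by 0.49 ± 0.08 in KI (1.40-fold lower, adjusted p = 1.45e-04). Ehmt1 had differences of -0.13 ± 0.10 in both genotypes (adjusted p = 0.364 and 0.322), and Setdb1, which silences endogenous retroviruses, had -0.03 ± 0.10 and 0.16 ± 0.10 (adjusted p = 0.852 and 0.221).

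None of the 3 H3K36 writers passed in either genotype with all arrays in the fit. Setd2, which trimethylates H3K36 behind RNA polymerase, averaged 8.71 ± 0.02 (SD, n = 4) in WT Tregs, 8.70 ± 0.07 in WT Tconv, 8.75 ± 0.11 in KI Tregs and 8.72 ± 0.03 in KI Tconv. The 95% interval of its Treg minus Tconv difference ran from -0.12 to 0.15 in WT and from -0.10 to 0.16 in KI. Nsd1 and Nsd3, which dimethylate H3K36, had differences of -0.20 and -0.04 in WT and of -0.09 and -0.07 in KI. Nsd1 passed in WT without WT Tconv replicate 1 (-0.27, adjusted p = 0.0228, limma).

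Of the 3 H4K20 writers, Kmt5a (Set8) adds the first methyl group and is regulated through the cell cycle, and Kmt5b and Kmt5c add further ones. Kmt5a read 8.66, 8.61, 8.46 and 8.46 in WT Tregs against 8.05, 8.30, 8.37 and 8.39 in WT Tconv, and 8.55, 8.58, 8.64 and 8.54 in KI Tregs against 8.25, 8.34, 8.15 and 8.29 in KI Tconv. The groups did not overlap. Kmt5a was higher in Tregs by 0.27 ± 0.08 log2 in WT (1.20-fold, adjusted p = 0.0136, limma) and by 0.31 ± 0.08 in KI (1.24-fold, adjusted p = 0.00408). A second probe set gave 0.14 and 0.06 and did not pass. Leaving out WT Treg replicate 1 or WT Tconv replicate 1 ended the WT call of Kmt5a.

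Kmt5c read 6.48, 6.44, 6.32 and 6.55 in WT Tregs and 5.72, 6.09, 5.84 and 6.45 in WT Tconv. The WT Tconv array of replicate 4 lay within the range of the Tregs. Its difference was 0.42 ± 0.15 in WT (adjusted p = 0.0318, limma) and 0.11 ± 0.15 in KI (adjusted p = 0.590), and the interaction was -0.31 (adjusted p = 0.801). The WT call of Kmt5c was lost on leaving out WT Treg replicate 1, 2 or 4 or WT Tconv replicate 1 or 3. Kmt5b differed by -0.20 ± 0.12 and -0.27 ± 0.12, short of the threshold (adjusted p = 0.220 and 0.0891, limma). In KI it passed with 2 or 3 runs of array numbers as a block (-0.27, adjusted p = 0.0306 and 0.0114, limma). It also passed there without KI Tconv replicate 4 (-0.37, adjusted p = 0.0191). Without arrays 24 to 27 it passed in both genotypes (-0.27 in WT, adjusted p = 0.0258, and -0.24 in KI, adjusted p = 0.0404). Its 4 tested probe sets, each on its own, gave -0.26 to 0.21 in WT and -0.30 to -0.16 in KI, and none passed. So the direction in WT depends on the probe set.

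Among the 7 Prmt genes tested, 2 (28.6%) were lower in Tregs in both genotypes, beside 17.9% of all genes in WT and 19.9% in KI. None of the 7 was higher, but Carm1 (Prmt4), which the name rule leaves out, was higher by 0.38 in WT and 0.45 in KI. Prmt3 is a cytosolic enzyme whose main substrate is a protein of the small ribosomal subunit. It read 8.77, 8.69, 8.77 and 8.87 in WT Tregs and 9.16, 9.15, 9.13 and 9.13 in WT Tconv, and 8.94, 8.97, 8.92 and 8.92 in KI Tregs and 9.04, 9.15, 9.26 and 9.27 in KI Tconv. Every Treg array lay below every Tconv array. Prmt3 was 1.29-fold lower in WT Tregs (-0.37 ± 0.06 log2, adjusted p = 1.21e-04, limma) and 1.18-fold lower in KI Tregs (-0.24 ± 0.06, adjusted p = 0.00396). A second probe set gave -0.60 in both genotypes and passed in both, and a dimmer one gave -0.00 in WT, where it did not pass, and -0.40 in KI, where it did.

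Prmt5, the main writer of symmetric dimethylarginine on histones and splicing proteins, read 7.78, 7.78, 7.70 and 7.72 in WT Tregs and 8.07, 8.21, 7.99 and 8.11 in WT Tconv. In KI it read 7.62, 7.65, 7.76 and 7.85 in Tregs and 8.00, 8.09, 8.15 and 8.11 in Tconv. Prmt5 was lower without overlap in both genotypes, at -0.35 ± 0.07 log2 in WT (1.28-fold lower, adjusted p = 7.94e-04, limma) and -0.37 ± 0.07 in KI (1.29-fold lower, adjusted p = 4.49e-04). Its obligate partner Wdr77 (Mep50) had differences of 0.09 and 0.09 and did not pass.

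Prmt1, the main asymmetric arginine methyltransferase, had the widest spread within groups of the tested genes. It read 8.66, 8.22, 9.37 and 9.10 in WT Tconv and 9.23, 8.43, 8.17 and 9.21 in KI Tconv, against 8.66, 8.59, 8.72 and 8.67 in WT Tregs and 8.71, 8.77, 8.14 and 8.53 in KI Tregs. Its Treg minus Tconv differences were -0.18 ± 0.24 in WT and -0.22 ± 0.24 in KI (adjusted p = 0.614 and 0.486, limma), with 95% intervals from -0.68 to 0.32 and from -0.73 to 0.28. Prmt2, Prmt6, Prmt7 and Prmt9 did not pass in either genotype. Prmt9 (-0.19 in KI, adjusted p = 0.0602) passed in KI with 2 runs of array numbers as a block (adjusted p = 0.0495), with 3 runs as a random block (adjusted p = 0.0497) and without WT Treg replicate 2 (adjusted p = 0.0392), and Prmt7 passed in WT without arrays 24 to 27 (-0.29, adjusted p = 0.0470). For Prmt6 and Prmt7, a dimmer probe set was lower in KI Tregs, at -0.49 (adjusted p = 0.00780) and -0.71 (adjusted p = 0.00241), while the probe sets used here gave 0.07 and -0.12, so the direction for Prmt6 depends on the probe set.

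**Figure D3:**
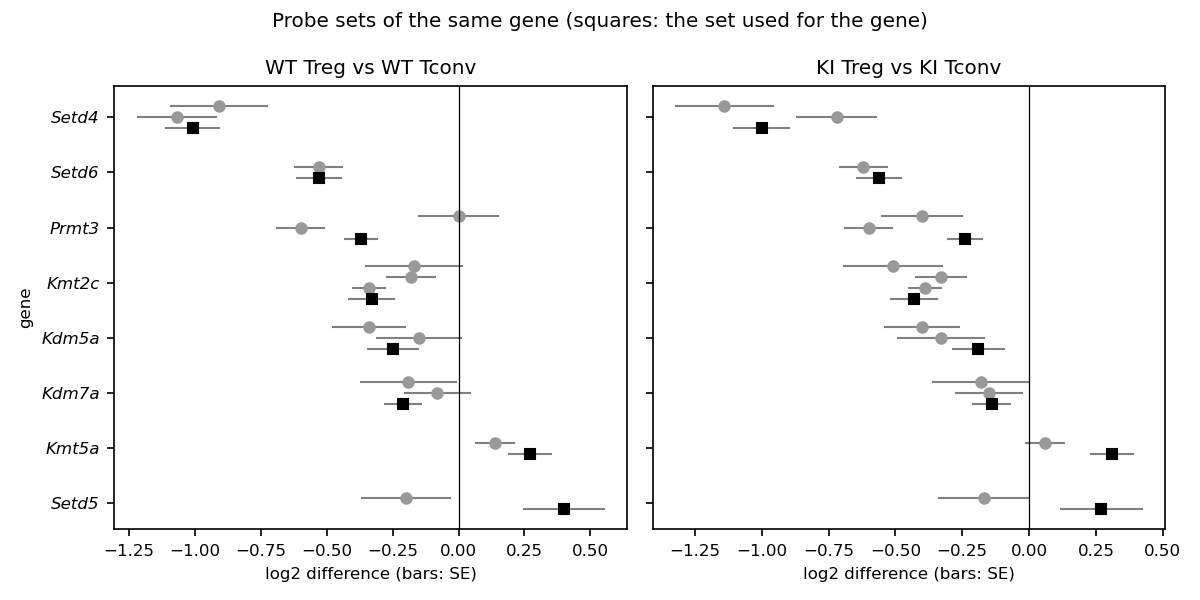
Treg minus Tconv difference in log2 expression for each tested probe set of 8 genes that have several, in WT (left) and KI (right), with bars of 1 SE; black squares mark the probe set used for the gene and grey circles the others. The 3 probe sets of Setd4 and the 2 of Setd6 lie on the same side, while those of Setd5 lie on opposite sides of 0.

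The amine oxidase demethylases did not pass. Kdm1a (LSD1), which removes methyl groups from H3K4 in the CoREST complex, averaged 10.41 ± 0.06 (SD, n = 4) in WT Tregs, 10.55 ± 0.11 in WT Tconv, 10.46 ± 0.15 in KI Tregs and 10.55 ± 0.08 in KI Tconv. Its differences were -0.14 ± 0.07 and -0.09 ± 0.07 (adjusted p = 0.154 and 0.342, limma). Kdm1b, its paralog, gave -0.12 and -0.16.

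Of the 8 Jumonji demethylases tested, 1 was higher and 3 lower in WT Tregs, beside 16.7% of all genes higher and 17.9% lower. In KI Tregs 1 was higher and 0 lower, beside 21.2% and 19.9% of all genes. Kdm2b, which removes methyl groups from H3K36 and brings a Polycomb complex to CpG islands, had the largest rise among all 37 tested genes. Kdm2b read 8.43, 8.71, 8.53 and 8.38 in WT Tregs against 7.76, 7.99, 7.83 and 7.60 in WT Tconv. The KI arrays gave 8.78, 8.76, 8.76 and 8.45 for Tregs and 7.72, 7.87, 7.96 and 7.77 for Tconv. All Treg arrays lay above all Tconv arrays. Kdm2b rose by 0.72 ± 0.10 log2 in WT (1.65-fold, adjusted p = 1.51e-05, limma) and by 0.86 ± 0.10 in KI (1.81-fold, adjusted p = 1.50e-06), from its only probe set.

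Kdm3a, which acts on H3K9, read 9.96, 9.93, 10.07 and 10.15 in WT Tregs and 10.34, 10.38, 10.22 and 10.23 in WT Tconv, without overlap. It was 1.20-fold lower in WT Tregs (-0.27 ± 0.06, adjusted p = 0.00196, limma), and in KI the difference was -0.13 ± 0.06 (adjusted p = 0.0945). With each array centred on its median, Kdm3a passed in KI (-0.16, adjusted p = 0.0301, limma). Kdm5a, an H3K4 demethylase, differed by -0.25 ± 0.09 in WT (adjusted p = 0.0478) and by -0.19 ± 0.09 in KI (adjusted p = 0.112). In KI it passed with the mean of its probe sets (-0.27, adjusted p = 0.0051, limma) and without KI Treg replicate 4 (-0.26, adjusted p = 0.0334). The WT call of Kdm5a was lost on leaving out WT Treg replicate 1, 2 or 3, WT Tconv replicate 2, 3 or 4, KI Treg replicate 1 or 3, or KI Tconv replicate 1, 2 or 3. Kdm7a, which acts on dimethylated H3K9 and H3K27, differed by -0.21 ± 0.07 in WT (adjusted p = 0.0269), with overlapping groups, and by -0.14 ± 0.07 in KI (adjusted p = 0.123). Its WT call was lost on leaving out WT Treg replicate 2 or 3 or WT Tconv replicate 3 or 4. No interaction passed for these genes, so a difference between genotypes was not shown.

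The remaining Jumonji genes were Kdm4c, Kdm5b, Kdm5c and Kdm6a. Kdm6a (Utx), an X-linked demethylase of H3K27, averaged 9.62 ± 0.16 (SD, n = 4) in WT Tregs, 9.66 ± 0.03 in WT Tconv, 9.68 ± 0.12 in KI Tregs and 9.61 ± 0.05 in KI Tconv, and its differences were -0.04 ± 0.07 and 0.07 ± 0.07. Kdm5c, an X-linked H3K4 demethylase, averaged between 8.80 and 8.87 in all 4 groups, with differences of 0.07 ± 0.08 and 0.03 ± 0.08. One of its 6 tested probe sets was lower in WT Tregs (-0.31, adjusted p = 0.0152, limma). Kdm4c, which acts on H3K9 and H3K36, missed the threshold in WT at -0.18 ± 0.07 (adjusted p = 0.0501) and differed by -0.05 ± 0.07 in KI.

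KI and WT were then compared within each cell type, which asks whether the Foxp3 fusion allele goes with other levels of these enzymes. None of the 37 passed in Tregs, beside 2.84% of all genes, and none passed in Tconv, beside 0.135% of all genes. For the interaction, 0 of 37 passed, beside 0.786% of all genes. At an unadjusted p below 0.05 there were 5 in Tregs (Kdm5b, Kmt2e, Prmt2, Prmt3 and Setdb1), 2 in Tconv (Kmt5c and Setd7) and 0 for the interaction (limma). The median KI minus WT difference was 0.03 in Tregs and -0.01 in Tconv, beside 0.04 and 0.01 over all genes. The 95% intervals lay within 1 log2 of 0 for all 37 genes in each cell type, and within 0.5 for 35 in Tregs and 34 in Tconv. In Tregs 34 of 37 differences were under 0.2 in size, and in Tconv 34 were. For the interaction the intervals lay within 0.5 for 32 of 37.

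**Figure D4:**
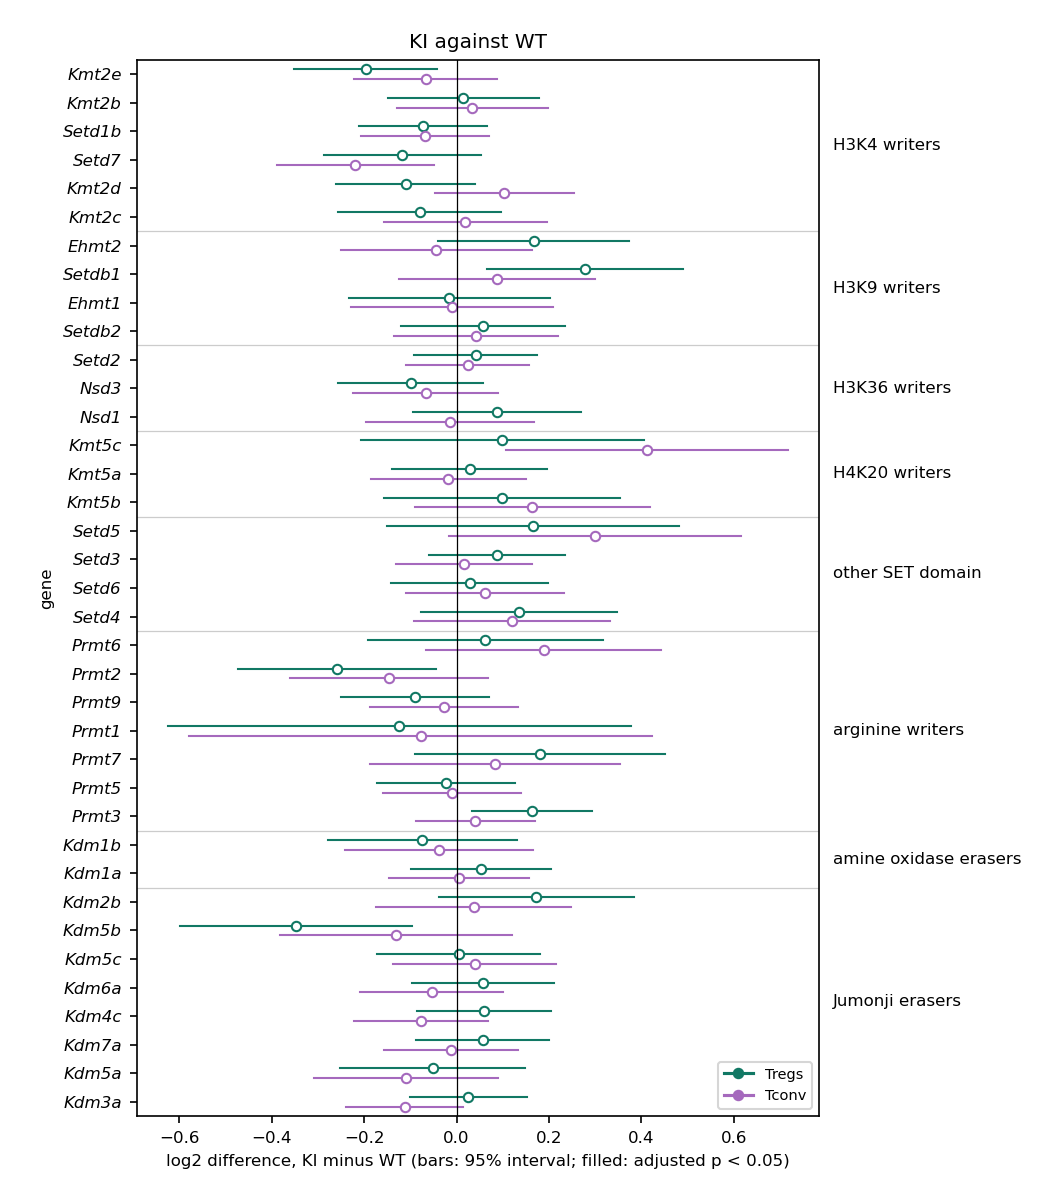
KI minus WT difference in log2 expression for the 37 tested genes, in Tregs and in Tconv, with bars of the 95% interval from 4 arrays a group; a filled point would mark an adjusted p below 0.05, and none is filled. The differences farthest from 0 are -0.35 for Kdm5b in Tregs and 0.41 for Kmt5c in Tconv.

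The difference of greatest size in Tregs was that of Kdm5b, an H3K4 demethylase. Kdm5b read 9.11, 8.84, 9.05 and 8.84 in WT Tregs and 8.65, 8.28, 8.66 and 8.86 in KI Tregs. The KI array of replicate 4 lay inside the WT range. The difference was -0.35 ± 0.12 (95% interval -0.60 to -0.10, adjusted p = 0.137, limma). Setdb1 read 6.73, 6.61, 6.36 and 6.56 in WT Tregs and 6.93, 7.00, 6.74 and 6.70 in KI Tregs, a difference of 0.28 ± 0.10 (adjusted p = 0.162). Prmt2 differed by -0.26 ± 0.10 (adjusted p = 0.209), Kmt2e, an H3K4 writer family member with no clear activity of its own, by -0.20 ± 0.07 (adjusted p = 0.179), and Prmt3 by 0.16 ± 0.06 (adjusted p = 0.181). Prmt3 was the one of these 5 whose WT and KI Treg arrays did not overlap. In the same comparison, a second, dimmer probe set of Kdm5b gave 0.02. The other tested probe sets of Kmt2e gave -0.05, -0.08 and 0.12, and none of these passed.

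In Tconv, Kmt5c read 5.72, 6.09, 5.84 and 6.45 in WT and 6.53, 6.25, 6.36 and 6.61 in KI, with overlap. Its difference was 0.41 ± 0.15 (95% interval 0.11 to 0.72, adjusted p = 0.683, limma). Setd7 read 9.50, 9.41, 9.48 and 9.41 in WT Tconv and 9.23, 9.14, 9.12 and 9.44 in KI Tconv, a difference of -0.22 ± 0.08 (adjusted p = 0.727). The KI array of replicate 4 again stood with the WT arrays.

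The array numbers in the sample names differ between the genotypes. Arrays 4 to 9 were all WT, arrays 13 to 23 all KI, and arrays 24 to 27 held 1 array of each group. What the numbers stand for is not stated. Within arrays 24 to 27 the KI minus WT difference was 0.02 for Kdm5b, 0.09 for Kmt2e and 0.04 for Setd7 in Tregs, and 0.03 for Setd7 in Tconv, from 1 array a group and so with no test. Without arrays 24 to 27, Kdm5b (-0.47, adjusted p = 0.0491, limma) and Kmt2e (-0.29, adjusted p = 0.0401) passed between KI and WT Tregs, and Setd7 (-0.30, adjusted p = 0.0451) passed between KI and WT Tconv. Without KI Treg replicate 4 alone, which is array 26, Kdm5b (-0.43, adjusted p = 0.0424) and Kmt2e (-0.26, adjusted p = 0.0321) passed too. With the 3 runs as a block, only arrays 24 to 27 hold both genotypes, and the other runs add their Treg minus Tconv differences. That fit is less precise. Between KI and WT Tregs it gave -0.05 ± 0.17 for Kdm5b and -0.07 ± 0.11 for Kmt2e, and neither passed. Without blocks these were -0.35 ± 0.12 and -0.20 ± 0.07. Why they moved was not tested. Among arrays 4 to 23, genotype and array number cannot be told apart. In the Treg against Tconv comparisons, the WT arrays 4 to 6 were all Tregs and 7 to 9 all Tconv, so cell type and array number cannot be told apart among those 6 arrays either. The 15 WT calls and 11 KI calls had the same sign within arrays 24 to 27, which were part of the fit, and passed without them. The same counts over all genes were not taken. In WT only arrays 4 to 9 are then left, so passing there does not separate cell type from array number. Of the WT calls, Kdm2b (0.78 beside 0.70) and Prmt5 (-0.39 beside -0.34) differed more within arrays 24 to 27 than without them. The other WT calls differed less there, as did Kmt5a (0.06 beside 0.34) and Kmt5c (0.10 beside 0.53).

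**Figure D5:**
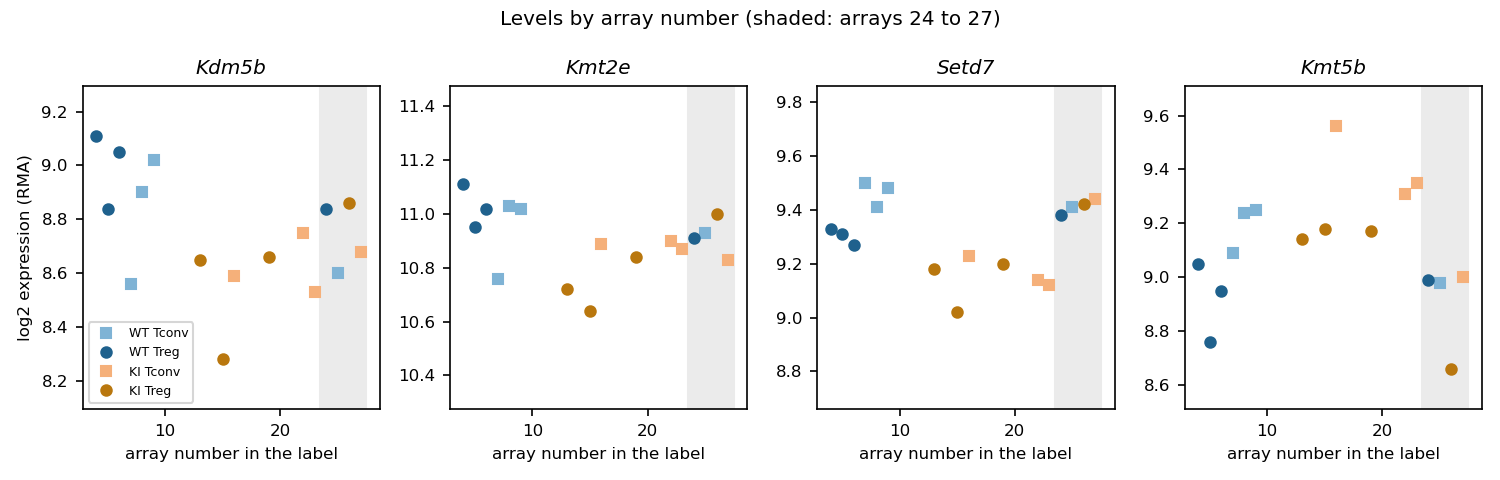
Log2 expression (RMA) of Kdm5b, Kmt2e, Setd7 and Kmt5b against the array number in the sample name; circles are Tregs, squares Tconv, blue WT, orange KI, and the shaded arrays 24 to 27 hold 1 array of each group. Setd7 reads 9.02 to 9.23 on the KI arrays numbered 13 to 23 and 9.42 and 9.44 on KI arrays 26 and 27, where it meets the WT level.

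Genes that work with these enzymes were taken from lists. Their counts stand beside 16.7% of all genes higher and 17.9% lower in WT Tregs, and 21.2% higher and 19.9% lower in KI Tregs. In Polycomb repressive complex PRC2, which methylates H3K27, 1 of 10 genes tested was higher in WT Tregs and 2 in KI Tregs, and none was lower. Ezh2, the catalytic subunit needed for stable function of activated Tregs, was higher by 0.29 in WT (adjusted p = 0.0170, limma) and by 0.59 in KI (adjusted p = 2.86e-05), and Jarid2 by 0.27 in KI (adjusted p = 0.0274). Among 11 COMPASS subunits, which the H3K4 writers need, Wdr82 was higher by 0.45 and 0.56 (adjusted p = 9.27e-05 and 7.68e-06) and Wdr5 lower, at -0.33 and -0.32 (adjusted p = 0.00443 and 0.00430). Ash2l passed in KI at 0.25 (adjusted p = 0.0416) and missed the threshold in WT at 0.24 (adjusted p = 0.0614).

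Of 7 other methyltransferases tested, 2 were higher and 1 lower in WT Tregs, and 2 higher and 3 lower in KI Tregs. Smyd2, a lysine methyltransferase with several targets, was higher by 0.69 and 0.53 (adjusted p = 2.14e-06 and 3.52e-05, limma), and Carm1, the arginine methyltransferase also called Prmt4, by 0.38 and 0.45 (adjusted p = 0.0237 and 0.00766). Smyd4 was lower, at -0.74 and -0.50 (adjusted p = 5.60e-04 and 0.00926). Dot1l, the H3K79 methyltransferase, was lower in KI Tregs, at -0.32 (adjusted p = 0.0227), beside -0.20 in WT. Of 7 further Jumonji genes tested, none passed in WT (1 at an unadjusted p below 0.05), and in KI 1 was higher (Jmjd1c, 0.22) and 3 lower (Jmjd6, -0.41; Riox2, -0.22; Phf2, -0.21).

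Among 10 partners of the H3K9 writers and of LSD1, 2 were higher in WT Tregs and none lower, and 2 were higher and 1 lower in KI Tregs. Hdac1 (0.44 and 0.32) and Atf7ip (0.24 and 0.32), the cofactor of Setdb1, were higher in both genotypes, and Hdac2, the paralog of Hdac1, was lower in KI (-0.23, adjusted p = 0.0255, limma). Rcor3, a CoREST family member, was lower in KI than in WT Tregs, at -0.30 (adjusted p = 0.0397, limma). Among 9 genes for methyl donors and cofactors, 3 were lower in WT Tregs, with Idh2, a mitochondrial enzyme that makes 2-oxoglutarate, at -0.96 in WT (adjusted p = 1.80e-07) and -0.79 in KI (adjusted p = 1.72e-06). Mthfd1 (-0.28) and Mtr (-0.32), enzymes of the folate and methionine cycles, also passed in WT, and Ahcy, which removes S-adenosylhomocysteine, passed in KI (0.24). Of 5 partners of the arginine methyltransferases, none passed in WT (0 at an unadjusted p below 0.05, limma), Btg1 and Btg2 were lower in KI Tregs (-0.12 and -0.31), and Btg1 was lower in KI than in WT Tregs (-0.18, adjusted p = 0.0136).

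Of 15 cell cycle genes tested, 4 (26.7%) had a higher level in Tregs of WT animals and 12 (80%) in Tregs of KI animals, each against Tconv, beside 16.7% and 21.2% of all genes higher. Between KI and WT, 3 were higher in KI Tregs (20%), beside 162 of all 8139 genes higher and 2.84% called in either direction. None of the cell cycle genes passed in Tconv, where 1 had an unadjusted p below 0.05 (limma). None was lower in these 4 comparisons. Their mean level ran from 5.70 to 6.59 on the WT Treg arrays, 5.42 to 6.08 on the WT Tconv arrays, 6.39 to 7.18 on the KI Treg arrays and 5.38 to 5.91 on the KI Tconv arrays. Mki67, a marker of cycling cells, was higher in Tregs by 1.05 in WT (adjusted p = 0.00716, limma) and by 2.27 in KI (adjusted p = 3.12e-06). Kdm2b, Ehmt2 and Kmt5a were higher in the same 2 comparisons, as were genes of the other lists, Ezh2 among them. Between KI and WT Tregs, Kdm2b differed by 0.17, Ehmt2 by 0.17, Kmt5a by 0.03 and Ezh2 by 0.27, and none of them passed. The part of cycling cells in all these differences was not tested.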

How the data were processed

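RNA expression was measured in 16 samples. The deposited values are log2 expression per probe set, made by the authors with RMA in Partek 6.5 per the submitters' processing notes, with RMA options not given in the sources used here. Values near or under 5 are close to background and understate folds, and precision is limited by having 4 arrays a group. The enzymes and all gene lists were chosen with earlier results of these data known.

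One probe set per gene (highest mean over 16 arrays) was kept if above log2 5 on at least 4 arrays, which left 8139 of 17097 genes. Gene names came from the platform annotation, updated through RefSeq. A linear model in limma 3.58.1 (R 4.3.3), with a mean for each group, all arrays and trended variances, gave two-sided p-values, adjusted by Benjamini-Hochberg over all genes tested, with a threshold of 0.05. The fit was tested on simulated data. Named with full statistics were the enzymes past the threshold between genotypes, up to 8 rises and 8 falls per cell type comparison, and a set list of well studied ones. From other lists, up to 4 genes with the lowest p in WT and those past the threshold between genotypes could be named; others with values were chosen after they were seen. Alternatives changed the filter, the probe set rule, the variance model, the arrays in the fit, the runs of array numbers, the scaling and each array in turn.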

Additional observations from a re-analysis of the deposited data

Results flagged for a closer look

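In 148 groups of 4 arrays (37 genes in 4 groups), 5 held an array whose gap to the nearest other exceeded Dixon's 95% critical value, or 3.38%, beside about 5% by chance. Kdm2b read 8.45 on KI Treg replicate 4, beside 8.76 to 8.78 on the other 3 arrays, and this value still lay above all Tconv arrays. On the same array Kmt5b read 8.66, beside 9.14 to 9.18. Kdm5c read 8.98 on WT Treg replicate 3, beside 8.81 to 8.84. Prmt6 read 6.13 on WT Treg replicate 2, beside 5.88 to 5.92. Setd6 read 8.43 on WT Tconv replicate 1, beside 8.52 to 8.53, and stayed above all Treg arrays. None of these 5 was weighed further.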

How the results depend on the processing

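The number of the 37 genes past the threshold ranged from 10 to 17 in WT and from 11 to 15 in KI over all alternatives (the 15 counts a gene with any of its probe sets past the threshold), from 10 to 17 and from 11 to 12 when 1 array was left out. All 11 KI calls, and the WT calls of Kdm2b, Kdm3a, Prmt3, Prmt5, Setd3, Setd4, Setd6 and Setdb2, were kept under every alternative that could be fitted for them. Between KI and WT Tregs the count went from 0 to 2 without arrays 24 to 27, and ranged from 0 to 2 when 1 array was left out. Between KI and WT Tconv it went from 0 to 1 without arrays 24 to 27. The cause was not tested. Of 12 other settings, the WT call of Kdm5a was kept in 9 and that of Setd5 in 8. With the probe set of largest variance, Prmt6 was lower in KI Tregs, at -0.49 (adjusted p = 0.00821, limma), instead of 0.07. Kmt2e (-0.58 instead of -0.07, adjusted p = 0.0195) and Prmt7 (-0.71 instead of -0.12, adjusted p = 0.00254) passed there too. In WT, Kdm4c and Kmt2d, which just missed the threshold, passed under several alternatives, among them the 3 runs as a random block (adjusted p = 0.0429 and 0.0346). No paired analysis was possible because the labels give no replicate numbers that groups share, and those used here only name arrays in accession order. Runs of array numbers were tried as blocks instead.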
